A study of Mus musculus with 2 samples.

Results

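Among the cells sorted for GFP from mouse mammary tumors, 97 cells of cluster 6 carried transcripts of fibroblast genes. They were the cells annotated as cluster 6 by the authors that held at least 1 unique molecular identifier (UMI, a tag that counts captured RNA molecules) of 3 or more of 13 genes: Col1a1, Col1a2, Col3a1, Dcn, Lum, Pdgfra, Fap, Dpt, Pdpn, Thy1, Mfap5, Col5a1 and Col6a3. Cluster 6 held 427 cells, 260 from mouse 1 and 167 from mouse 2, and the annotation covered 9159 cells in 18 clusters. The fibroblast-gene cells numbered 60 in mouse 1, 23.1% of its cluster 6 (exact 95% interval 18.1 to 28.7%), and 37 in mouse 2, 22.2% (16.1 to 29.2%). The 330 remaining cells of cluster 6, 200 and 130, served as the comparison.

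Both mice were Krt8-CreERT/Rosa26-mTmG/MMTV-PyMT animals. In these mice the polyoma middle T oncogene is driven in the mammary epithelium by the MMTV promoter, and tamoxifen lets a Cre recombinase made in Krt8-expressing luminal cells switch a membrane reporter from red to green for good. Both received tamoxifen at 150 mg/kg on 6 days, spread over weeks 5 and 6, and tumors were taken at 1.5 cm3. Live cells lacking CD31 and CD45 but carrying GFP were sorted, and 1 droplet library was made per mouse. There was no untreated or unlabelled group, and the label marks any cell that expressed Krt8 during the pulse, or its descendants. The libraries totalled 63140346 and 61529883 UMIs, with a median of 15014 and 9470 UMIs per annotated cell. The 2 libraries shared 20 cell barcodes, none of them in cluster 6.

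Fibroblasts build the connective tissue of the mammary gland. They secrete the fibrillar collagens (Col1a1, Col1a2, Col3a1, Col5a1), the microfibrillar collagen VI and the small leucine-rich proteoglycans decorin (Dcn) and lumican (Lum) that space collagen fibrils. Adventitial fibroblasts around vessels and ducts make Pi16, Dpp4 and Clec3b, inflammatory fibroblasts make chemokines, Il6 and hyaluronan synthases, and pericytes, the mural cells of small vessels, make Rgs5 and Pdgfrb. Myoepithelial (basal) cells of the gland also make contractile proteins such as smooth muscle actin (Acta2), along with the keratins Krt5 and Krt14. Epithelial tumor cells can take up parts of a mesenchymal program, so a matrix transcript alone does not name a cell type.

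Promoter windows of 3 genes are shown: Col3a1 and Col1a2, collagen genes of the rule, and Pi16, which the rule did not use and which had no UMI in the other cluster 6 cells. Each window runs from 250 bases before to 50 bases after the annotated start and comes from RefSeq on build GRCm38.p6, at chr1:45311288-45311587 for Col3a1, chr6:4505368-4505667 for Col1a2 and chr17:29318632-29318931 for Pi16, all on the plus strand. Capitals mark CCAAT and TATAAA on either strand.
Col3a1: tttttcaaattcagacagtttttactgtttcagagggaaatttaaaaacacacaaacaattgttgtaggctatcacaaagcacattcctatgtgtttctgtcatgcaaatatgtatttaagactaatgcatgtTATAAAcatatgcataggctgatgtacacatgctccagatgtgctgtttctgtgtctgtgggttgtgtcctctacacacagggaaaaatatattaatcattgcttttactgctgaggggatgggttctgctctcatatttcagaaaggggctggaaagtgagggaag
Col1a2: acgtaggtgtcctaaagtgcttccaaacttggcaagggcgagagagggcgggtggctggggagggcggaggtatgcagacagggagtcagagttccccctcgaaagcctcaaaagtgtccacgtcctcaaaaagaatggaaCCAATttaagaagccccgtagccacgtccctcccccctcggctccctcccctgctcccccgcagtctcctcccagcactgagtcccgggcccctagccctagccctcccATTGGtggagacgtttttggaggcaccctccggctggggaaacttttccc
Pi16: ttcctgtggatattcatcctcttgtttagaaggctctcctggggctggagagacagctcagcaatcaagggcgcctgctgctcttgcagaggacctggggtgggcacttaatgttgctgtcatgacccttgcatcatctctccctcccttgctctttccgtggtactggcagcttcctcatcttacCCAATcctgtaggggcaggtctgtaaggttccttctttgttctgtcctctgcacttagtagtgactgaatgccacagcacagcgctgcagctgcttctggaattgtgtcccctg
The Col3a1 window held 1 TATAAA, beginning 117 bases before the start. Col1a2 held 2 CCAAT, beginning 109 and 0 bases before the start, and Pi16 held 1, 64 bases before it. Of 32851 promoter windows of this length, 37.4% held CCAAT and 13.6% held TATAAA, so these letters are common and mark no site by themselves.

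The number of fibroblast genes per cell ran from 0 to 13 in cluster 6. In mouse 1, 106 cells held none, 57 held 1, 37 held 2 and 29 held 3, and in mouse 2 the counts were 84, 31, 15 and 5. Of the 97 cells, 65 held 3 to 5 of the genes (49 and 16), 16 held 6 to 8 (8 and 8) and 16 held 9 or more (3 and 13). No cell held exactly 10, and the boundary at 9 was chosen after the counts were seen. Mouse 1 thus had most of its cells at the low end and mouse 2 had more at the high end.

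**Figure D1:**
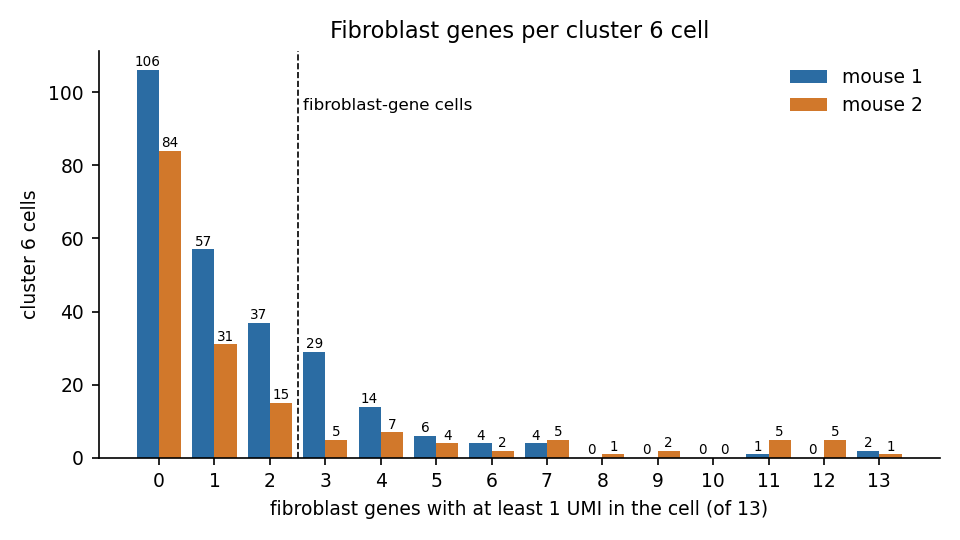
Number of cluster 6 cells (vertical axis) by how many of the 13 fibroblast genes had at least 1 UMI (horizontal axis), for mouse 1 (blue) and mouse 2 (orange); numbers over the bars are cell counts and the dashed line marks the rule. Counts fall from 0 to 3 genes in both mice, and 13 cells of mouse 2 but 3 of mouse 1 hold 9 or more. In mouse 2 later counts go up and down, with 7 cells at 4 genes and 5 each at 7, 11 and 12.

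The threshold of 3 genes did not fall in a gap of the counts. Cells with 2 of the genes, just outside it, carried 1572 (mouse 1) and 430 (mouse 2) UMIs of the 13 genes for each 1000000 UMIs of the summed cells (CPM), and cells with 3 genes, just inside, carried 2014 and 547 CPM. Shifting the minimum to 4 left 11.9% and 19.2% of cluster 6, and shifting it to 6 left 4.23% and 12.6%. When every cell was thinned to 2000 UMIs, 6.94% of cluster 6 in mouse 1 and 17.2% in mouse 2 still held 3 or more genes. Thinning thus took away most of the cells of mouse 1 and few of those of mouse 2.

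Cells meeting the rule were nearly confined to cluster 6 by this count. Of 8732 annotated cells outside it, 3 held 3 or more of the genes, 0.0344% (exact 95% interval 0.00709 to 0.1%), although their median depth of 11439 UMIs was no lower. At least 1 of the 13 genes was seen in 5.58% and 5.79% of cells outside cluster 6. These counts were not spread evenly. Cluster 13, high for the mature luminal signature, held 48 of the 331 UMIs of the 13 genes outside cluster 6 in mouse 1. In mouse 2 it held 782 of 1071. Of 4554 barcodes without annotation, whose median mitochondrial share was 81.2% of UMIs, 1 met the rule. Median depth was 13096 and 7807 UMIs in the fibroblast-gene cells against 11950 and 8214 in the other cluster 6 cells, and neither class was deeper in both mice.

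The values in this paragraph and the next describe the genes that chose the cells, so they carry no test. Type I collagen, the main fibril protein of connective tissue, was held almost wholly by cells with many of the genes. Col1a1 reached 14326 and 5177 CPM in the cells of 9 or more genes, 738 and 2083 CPM in those of 6 to 8, 51.7 and 83.2 CPM in those of 3 to 5, and 0.795 and 2.37 CPM in the other cluster 6 cells. Its partner Col1a2 followed with 12516 and 6440, 59.8 and 1943, 70.7 and 440, and 2.78 and 3.15 CPM in the same order. Col3a1 gave 14257 and 10305, 508 and 3124, 269 and 719, and 17.1 and 5.52 CPM. These 3 collagens were thus lowest in the other cells in each mouse, and the fibroblast-gene cells held 99.8% and 99.5% of the Col1a1 UMIs of cluster 6.

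Decorin and podoplanin were spread more widely. Dcn stood at 1080 and 2127 CPM already in the cells of 3 to 5 genes, against 129 and 30.7 CPM in the other cluster 6 cells. Pdpn, a membrane glycoprotein also made by basal cells, stood at 219 and 214 CPM in the cells of 3 to 5 genes and 68.8 and 77.3 CPM in the other cells, and only 54.4% and 44% of its cluster 6 UMIs lay in the fibroblast-gene cells. Without Dcn in the rule, the share of cluster 6 in mouse 1 fell to 13.5%, and without Pdpn to 14.6%; in mouse 2 both stayed at 21%. Lum differed between the mice, with 127 CPM in the other cells of mouse 1 and 3.94 CPM in those of mouse 2. Dpt (dermatopontin) and Mfap5 (a microfibril glycoprotein) had no UMI in the other cluster 6 cells of either mouse, and Mfap5 had none in the cells of 3 to 5 genes either. In the cells of 9 or more genes Mfap5 reached 1537 and 2082 CPM. Thy1 was seen in 3 of 60 cells of mouse 1 and 20 of 37 of mouse 2.

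**Figure D2:**
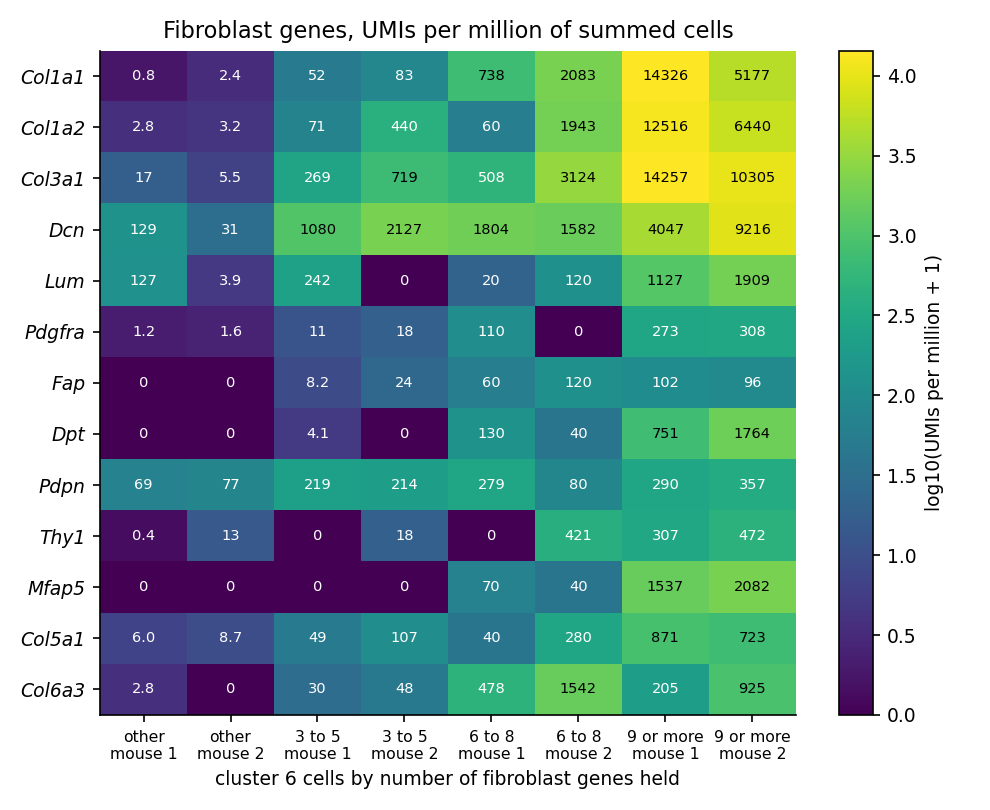
CPM of each of the 13 fibroblast genes (rows) in cluster 6 cells summed by the number of those genes held and by mouse (columns); colour is log10 of CPM plus 1 and the printed numbers are CPM. Col1a1, Col1a2, Col3a1, Dpt and Mfap5 are highest in the cells of 9 or more genes, while Dcn and Pdpn are already high in cells of 3 to 5.

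A few cells carried most of these transcripts. The 3 cells of 9 or more genes in mouse 1 held 60.6% of all UMIs of the 13 genes in the 60 cells, and the 13 in mouse 2 held 77.4%. One cell of mouse 1 alone gave 768 Col1a1 UMIs of its 32378. In single cells the 13 genes made up 0.0329 to 7.89% of UMIs in mouse 1 (median 0.24%) and 0.02 to 5.49% in mouse 2 (median 0.969%). Sums of these genes in mouse 1 thus lean on 3 cells.

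The remaining genes were used to ask whether the cells chosen by these transcripts differed from the rest of cluster 6 in the same way in both mice. UMIs were summed per mouse and class and tested with edgeR's quasi-likelihood test with the mouse as a block. Because the classes were set by RNA of the same cells, a p-value does not show that the class exists, and genes that go along with the 13 had to follow. In a sum, more cells with a transcript and more transcript per cell cannot be told apart. Of 8423 genes tested, 318 were higher in the fibroblast-gene cells (3.78% of those tested) and 79 were lower (0.938%), or 397 in all (4.71%). The threshold was a Benjamini-Hochberg adjusted p under 0.05, and each called gene had the same sign in both mice. Counts of calls in the lists below are to be read against these shares. They include genes at 0 in 1 class, which passed the low-count filter only through the other class. Among these are Pi16, Col5a3, Mfap2, Mfap4 and Cdh3. For the cells of 3 to 5 genes compared alone, the shares were 1.77% higher and 0.692% lower. Without the cells of 9 or more genes, 214 were higher and 87 lower, of which 247 were among the 397. Fits without 1 of the 4 sums, given next, also dropped the mouse block. In them the effects of the missing sum and of the missing block cannot be told apart. Without the fibroblast-gene cells of mouse 2, 105 were higher and 19 lower. Without the other cluster 6 cells of mouse 1 or of mouse 2 edgeR called no gene (605 and 497 genes had an unadjusted p under 0.05), and without the mouse block 71 were higher and 9 lower.

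The 12 largest rises were ranked by the fitted fold change, which for genes without a UMI in the other cells rests on the fit's prior count, so their order is not a measured one. Pi16, a peptidase inhibitor of adventitial fibroblasts, stood at 110 and 208 CPM in the fibroblast-gene cells of mouse 1 and mouse 2 and had no UMI in the other cluster 6 cells. Against 3 UMIs, the limit set here for a count of 0 over that class, it was at least 171-fold higher (edgeR adjusted p = 5.4e-05). A gene at 0 in 1 class passed the low-count filter only through the other class. Its p-value is thus no separate support for the difference. Pi16 was held by few cells: 2 of the 3 cells of 9 or more genes in mouse 1 and 9 of the 13 in mouse 2, 1 cell of 6 to 8 genes and none of 3 to 5. In mouse 1 a single cell gave 97 Pi16 UMIs and the other holder gave 1, so the level of mouse 1 is that of 1 cell. Rarres2, the chemokine-like adipokine chemerin, stood at 30.2 and 255 CPM, with no UMI in the others, and was at least 113-fold higher. Also without a UMI in the other cells were Penk (the enkephalin precursor; 79.4 and 31.1 CPM), Col5a3 (16.8 and 171 CPM), the microfibril genes Mfap2 (24.6 and 118 CPM) and Mfap4 (26.8 and 109 CPM), and Nnmt (28 and 93.2 CPM), a nicotinamide methyltransferase.

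These lower bounds ran from 57-fold for Nnmt to 84-fold for Penk. For the 7 genes at 0 in the other cells, DESeq2 gave no call (adjusted p = 0.22 for Pi16 to 0.57 for Penk), so their call depends on the tool. Over the alternatives the adjusted p of Pi16 ran from 2.59e-34 to 0.685 and that of Penk from 3.47e-19 to 0.685. Of the 318 higher genes, 13 had no UMI and 27 had 1 to 3 UMIs in the other cells. The remaining large rises had 1 or 2 UMIs there. Efemp1, a fibulin of elastic fibers, stood at 32.4 and 289 CPM against 1 UMI, a ratio of 380 (counting interval 66.9 to 15115). Igfbp6 was at 14.5 and 270 CPM, Aspn (asporin) at 42.5 and 202 CPM, the eosinophil chemokine Ccl11 at 26.8 and 348 CPM and the interferon-inducible Ifi205 at 44.7 and 298 CPM, with adjusted p from 5.4e-05 to 8.4e-05. Among these genes Penk alone was higher in mouse 1 than in mouse 2.

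The largest falls included keratins, acute-phase genes and surface proteins. Krt6a, a stress keratin, had no UMI in the fibroblast-gene cells and stood at 70.7 and 38.6 CPM in the other cells, so it was at least 24.3-fold lower (edgeR adjusted p = 0.00083; DESeq2 gave 0.96, the highest over the alternatives, and the lowest was 1.29e-12). Krt15, a basal keratin, stood at 1.12 and 0 CPM against 125 and 22.9 CPM. Ly6d, a surface protein of luminal cells, fell from 272 and 252 CPM to 4.47 and 0 CPM (log2 fold change -6.37 ± 0.58 SE, adjusted p = 9.7e-05). Further falls were the acute-phase genes Saa2 (134 and 263 CPM in the other cells, 1.12 and 3.11 CPM in the fibroblast-gene cells), Saa1 (357 and 313 against 29.1 and 3.11) and Hp (70.3 and 692 against 2.24 and 83.9). Wfdc2, a secreted protease inhibitor of luminal cells, was at 333 and 287 CPM in the other cells and 22.4 and 3.11 CPM here.

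The chemokine Ccl5 stood at 54.4 and 82.8 CPM in the other cells and at 1.12 and 0 CPM in the fibroblast-gene cells. The ligand Wnt7b stood at 54.4 and 57.6 CPM in the other cells against 3.35 and 0 CPM. Plet1, a progenitor surface protein, and Areg (amphiregulin, an EGF receptor ligand) fell least evenly. Plet1 was at 1032 CPM in mouse 1 and 34.2 CPM in mouse 2, against 3057 and 3194 CPM, with an adjusted p of 0.037. Areg was at 195 and 21.7 CPM against 759 and 782 CPM (adjusted p = 0.0074). Only genes with the same sign in both mice were eligible here, so lying below the other cells in each was set beforehand.

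Collagen genes outside the rule rose together with those inside it. Of 10 other stromal collagens tested, 8 were higher and none lower, with a median log2 fold change of 3.15 against -0.03 over all genes tested. The collagen VI chains that assemble with Col6a3 were among them. Col6a1 stood at 178 and 556 CPM against 21.5 and 11 CPM (log2 fold change 4.22 ± 0.56, adjusted p = 0.00092), and Col6a2 at 104 and 435 CPM against 6.76 and 3.15 CPM (5.21 ± 0.62, adjusted p = 0.00048). Col8a1, a short-chain collagen of vessel walls, stood at 265 and 562 CPM against 70.3 and 14.2 CPM (3.42 ± 0.66, adjusted p = 0.011). In every case both mice lay above both sums of the other cells, as they did for 1697 of all 8423 genes tested.

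Enzymes that process collagen followed in part, with 7 of 16 higher and none lower (median 1.80). Lox, the oxidase that cross-links collagen and elastin, stood at 115 and 342 CPM against 3 UMIs in the other cells, a ratio of 221 (74.6 to 1080). Pcolce, which enhances removal of the procollagen C-terminus, stood at 132 and 217 CPM against 4.37 and 1.58 CPM (5.60 ± 0.52, adjusted p = 0.00011). Loxl1 was at 92.8 and 214 CPM against 7.15 and 5.52 CPM, and Adamts2, the procollagen N-proteinase, at 74.9 and 211 against 23.8 and 7.1 CPM. The calls for Lox and Pcolce were kept in the cells of 6 or more genes, and Pcolce was also called in those of 3 to 5 (4.29, adjusted p = 0.00024, with 2.2e-25 to 0.685 over the alternatives).

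Proteoglycans were higher in all 7 genes tested (median 2.81). Bgn (biglycan) stood at 1267 and 2218 CPM against 275 and 211 CPM (2.81 ± 0.31, adjusted p = 0.0003), Ogn (osteoglycin) at 41.4 and 252 against 4.77 and 20.5 CPM, and Podn (podocan) at 50.3 and 43.5 against 4.77 and 4.73 CPM. Among elastic fiber and microfibril genes 9 of 12 were higher and none lower (median 2.82). Fbn1 (fibrillin-1) stood at 114 and 789 CPM against 4.77 and 10.2 CPM (5.47 ± 0.48, adjusted p = 7.3e-05). Of 12 basement membrane genes 7 were higher and none lower (median 1.32), among them Nid1 (nidogen), at 104 and 438 CPM against 15.9 and 60.7 CPM, and Lama2, at 21.2 and 40.4 CPM against 3 UMIs.

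Matricellular genes, whose products tune how cells hold to matrix, split. Of 12 tested, 8 were higher and none lower (median 1.90). Fn1 (fibronectin) stood at 996 and 1901 CPM against 221 and 140 CPM (2.97 ± 0.36, adjusted p = 0.00056), and Thbs2 (thrombospondin-2) at 66 and 227 against 5.17 and 11 CPM. Cthrc1 was at 67.1 and 149 CPM and Ccn5 at 61.5 and 96.3 CPM, both under 8 CPM in each sum of the other cells. Postn (periostin), which the study singled out, stood at 1353 and 2038 CPM against 440 and 526 CPM (1.80 ± 0.22, adjusted p = 0.00058). Spp1 (osteopontin), also singled out, went apart: 9926 and 2463 CPM against 5705 and 7777 CPM, above the other cells in mouse 1 and below them in mouse 2 (-0.41 ± 0.41, adjusted p = 0.76). In the cells of 9 or more genes Spp1 was at 0 CPM in mouse 1 and 38.6 CPM in mouse 2. In stained human tumors the study reported periostin protein mostly in the stroma and in no tumor cells. Osteopontin protein did not differ there between luminal B and low-ER tumors.

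**Figure D3:**
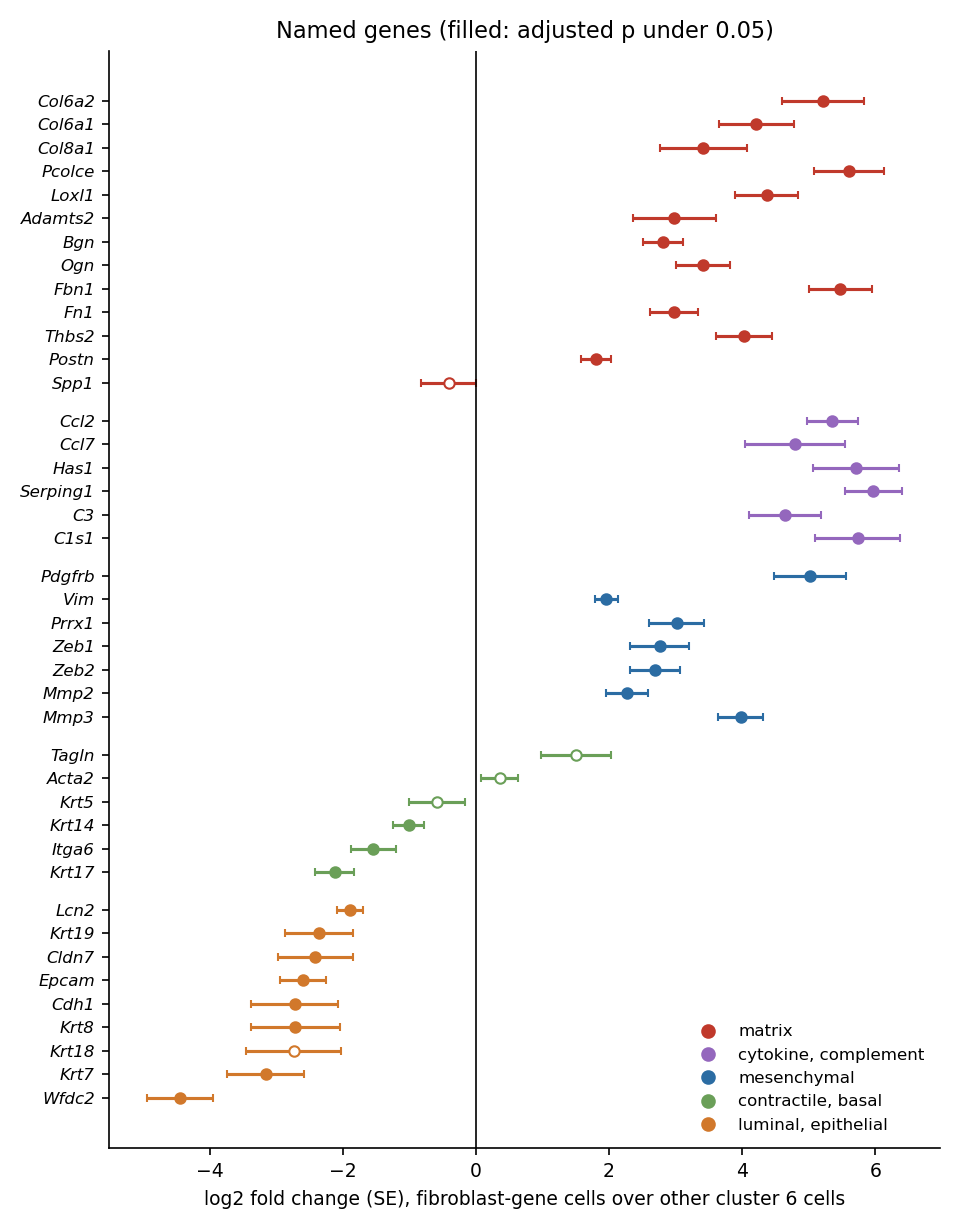
Log2 fold change (horizontal axis, bars are standard errors) of named genes in the fibroblast-gene cells over the other cluster 6 cells, from sums of 2 mice per class; filled circles passed an adjusted p of 0.05 and open ones did not. Genes with 3 or fewer UMIs in either class are left out. Matrix, cytokine and mesenchymal genes lie to the right except Spp1, and luminal genes lie to the left. The genes shown were chosen after their values were seen, so their sides are in part set by that choice.

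Genes of inflammatory fibroblasts were higher in 8 of 11 tested, none lower, with a median log2 fold change of 4.03. Ccl2, a monocyte chemokine, stood at 430 and 3383 CPM against 18.3 and 49.7 CPM (5.36 ± 0.38, adjusted p = 3.6e-05). Its neighbor in function Ccl7 stood at 219 and 1050 CPM against 25.8 and 7.88 CPM (4.80 ± 0.75, adjusted p = 0.0028). Has1, a hyaluronan synthase, was at 124 and 547 CPM against 5.96 and 2.37 CPM. Saa3 had 37 UMIs in the fibroblast-gene cells, all in 1 cell of each mouse, and 1 UMI in the others. The calls differed along the range of fibroblast genes: in those of 3 to 5 genes 1 of 9 tested passed, and Ccl2 missed the threshold there (1.89, adjusted p = 0.056, the alternatives running from 1.99e-64 to 0.689). Ccl2 was found in 17 of 60 cells in mouse 1 and 17 of 37 in mouse 2, and in 12 of 200 and 5 of 130 other cells.

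Complement genes, which fibroblasts secrete, were higher in 4 of 6 tested (median 4.76). Serping1 (C1 inhibitor) stood at 78.3 and 780 CPM against 0.795 and 14.2 CPM (5.97 ± 0.43, adjusted p = 3.6e-05), and C3 at 90.6 and 742 CPM against 8.35 and 13.4 CPM (4.64 ± 0.54, adjusted p = 0.00042). C1s1 was at 45.8 and 304 CPM and C1ra at 32.4 and 202 CPM, with the other cells under 4 CPM. None of the complement genes passed in the cells of 3 to 5 genes. Adventitial genes besides Pi16 were Clec3b, at 24.6 and 447 CPM against 3 UMIs, and Gsn (gelsolin), at 359 and 1460 CPM against 105 and 75.7 CPM. Counting Pi16, which passed the low-count filter only through the fibroblast-gene cells, 3 of 8 tested were higher. Summed over the list, adventitial genes stood at 5003 and 7953 CPM in the cells of 9 or more genes and at 359 and 981 CPM in those of 6 to 8. The other cluster 6 cells stood at 400 and 319 CPM. Cluster 13 stood at 1715 and 2438 CPM, above the cells of 6 to 8 genes, so a raised sum of this list is not particular to fibroblast-gene cells.

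Pericyte genes were highest in a few cells of mouse 2. Their sum was 7270 CPM in the 8 cells of 6 to 8 genes of mouse 2, against 164 CPM in that mouse's cells of 9 or more genes, 209 CPM in the cells of 6 to 8 genes of mouse 1 and 78.8 CPM in the other cluster 6 cells of mouse 2. Rgs5 had 23, 34, 55, 69 and 79 UMIs in 5 of those 8 cells, and each of the 5 held 7 or 8 of the 10 pericyte genes. Of these 5 cells none held a Pi16 UMI, and of the 16 cells of 9 or more genes none held Rgs5. Of the 16 cells of 3 to 5 genes of mouse 2, 3 held Rgs5, with 2, 12 and 64 UMIs and 3, 7 and 6 pericyte genes. Mouse 1 had no Rgs5 UMI in its 60 cells, so these values describe 1 library. Pdgfrb, shared by pericytes and fibroblasts, stood at 52.6 and 106 CPM against 2.38 and 1.58 CPM and was called (5.03 ± 0.54, adjusted p = 0.00028).

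**Figure D4:**
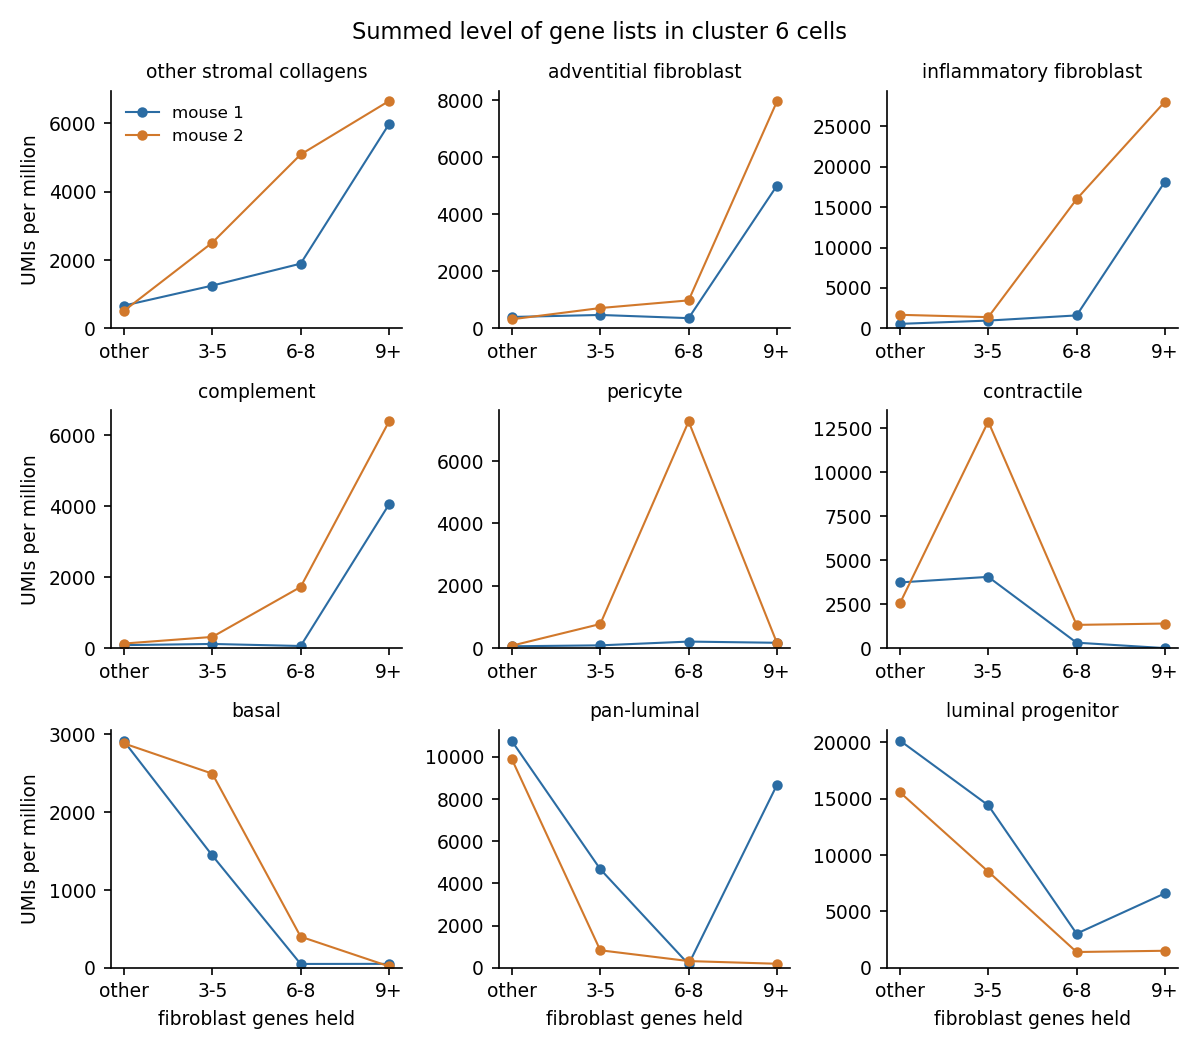
Summed CPM of 9 gene lists (vertical axis, from 0, a scale for each panel) in cluster 6 cells grouped by how many of the 13 fibroblast genes they held (horizontal axis), for mouse 1 (blue) and mouse 2 (orange). Adventitial and complement genes peak at 9 or more, pericyte genes at 6 to 8 (7270 CPM in mouse 2, 209 CPM in mouse 1), and contractile and basal genes at 3 to 5 or in the other cells; the pan-luminal point at 9 or more in mouse 1 comes from 1 of 3 cells.

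Mesenchymal transcription factors passed in part. Of 9 tested 4 were higher and none lower, and in the cells of 3 to 5 genes 3 of 8 were higher. Prrx1, a mesenchymal homeobox factor, stood at 78.3 and 168 CPM against 13.5 and 14.2 CPM (3.02 ± 0.41, adjusted p = 0.0011), and its relative Prrx2 at 35.8 and 40.4 CPM against 2 UMIs. Zeb1 and Zeb2, repressors of E-cadherin, stood at 60.4 and 65.2 and at 120 and 177 CPM, with the other cells at 7.15 and 12.6 and at 22.7 and 22.1 CPM (2.76 ± 0.44 and 2.69 ± 0.37). Both were also called in the cells of 3 to 5 genes. Vim (vimentin) stood at 3654 and 3510 CPM against 1028 and 843 CPM, and the rise was alike in size in the cells of 3 to 5 genes (1.96, adjusted p = 6.2e-05) and of 6 or more (1.95, adjusted p = 0.0012), with adjusted p over all alternatives from 1.3e-19 to 0.685. Of 12 mesenchymal surface and cytoskeletal genes 7 were higher, including Cdh11 (13.4 and 115 against 0.397 and 2.37 CPM) and the collagen receptor Ddr2 (20.1 and 106 against 4.77 and 3.94 CPM).

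Proteases and their inhibitors were higher in 10 of 12 tested (median 2.49). Mmp2 (gelatinase A) stood at 441 and 562 CPM against 115 and 93 CPM (2.28 ± 0.32, adjusted p = 0.0013). Mmp3 (stromelysin-1) stood at 695 and 354 CPM against 51.3 and 18.9 CPM, Mmp19 at 70.4 and 77.7 against 0.795 and 6.31 CPM, and the collagen-degrading cathepsin Ctsk at 39.1 and 276 CPM against 2 UMIs. Secreted regulators of growth factors also passed in part. Of 8 IGF axis genes 5 were higher: Igfbp2 stood at 988 and 916 CPM against 302 and 118 CPM, Igfbp4 at 396 and 447 against 101 and 74.1 CPM, and Igfbp7 at 1815 and 3311 against 594 and 1381 CPM (1.46 ± 0.19, adjusted p = 0.00084). Of 8 Wnt and BMP modulators 3 were higher, Sfrp2 at 165 and 193 CPM against 7.95 and 2.37 CPM, Sfrp1 at 380 and 674 against 147 and 103 CPM, and Fstl1 at 367 and 1506 against 79.1 and 80.4 CPM.

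Contractile genes did not divide the classes as a whole but divided the fibroblast-gene cells among themselves. None of 9 tested passed in either direction (median 0.58). Acta2 stood at 1236 and 2466 CPM against 1552 and 1229 CPM in the other cells (0.35 ± 0.28, adjusted p = 0.69), and Tagln (transgelin) at 1051 and 2544 against 989 and 339 CPM (1.51 ± 0.53, adjusted p = 0.18). Summed, contractile genes stood at 4055 and 12895 CPM in the cells of 3 to 5 genes, 309 and 1322 CPM in those of 6 to 8, and 0 and 1398 CPM in those of 9 or more. In mouse 2 they were concentrated: 4 of its 16 cells of 3 to 5 genes held 250, 245, 80 and 67 Acta2 UMIs. When the cells of 6 or more genes alone were compared with the other cluster 6 cells, Acta2 was lower (-3.28, adjusted p = 0.012, the lowest over the alternatives, which reached 1), and 4 of 9 contractile genes were lower. In the cells of 3 to 5 genes 1 of 9 passed, Tagln, which was higher (1.94, adjusted p = 0.048; alternatives 1.86e-06 to 1). Myofibroblast genes outside this group were higher in part: Inhba (the activin A subunit) stood at 689 and 457 CPM against 248 and 114 CPM and Itga11, a collagen-binding integrin, at 15.7 and 37.3 against 0.795 and 7.1 CPM.

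Basal genes were lower in 5 of 13 tested and higher in none (median -1.01). Krt14 stood at 397 and 662 CPM against 865 and 1260 CPM (-1.01 ± 0.23, adjusted p = 0.031), and Krt17 at 280 and 87 CPM against 995 and 496 CPM (-2.12 ± 0.30, adjusted p = 0.0013). Krt5 gave 76 and 180 CPM against 199 and 155 CPM and did not pass (-0.59 ± 0.41, adjusted p = 0.62). Cdh3 (P-cadherin) had no UMI in the fibroblast-gene cells, at least 5.57-fold lower, and the integrin Itga6 stood at 140 and 102 against 305 and 429 CPM. The summed list was at 1444 and 2496 CPM in the cells of 3 to 5 genes, 50.3 and 143 CPM in those of 6 or more, and 2913 and 2884 CPM in the other cells. No cell of 9 or more genes held a Krt14 or Krt5 UMI. Of 13 basal genes tested in the cells of 3 to 5 genes, 3 were lower and none higher (median -0.47). Those of 6 or more genes lay below the other cluster 6 cells for both lists in each mouse.

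Pan-luminal genes were lower in 5 of 8 tested and higher in none (median -2.51). Epcam, an adhesion protein of simple epithelia, stood at 1512 and 314 CPM against 4901 and 3784 CPM (-2.60 ± 0.35, adjusted p = 0.0011). Krt8, whose promoter drove the label, stood at 1221 and 102 CPM against 2470 and 2699 CPM (-2.72 ± 0.67, adjusted p = 0.041), and its partner Krt18 at 1038 and 65.2 CPM against 2030 and 2022 CPM (-2.74 ± 0.71, adjusted p = 0.054). Krt7 stood at 68.2 and 6.21 CPM against 306 and 343 CPM, the claudin Cldn7 at 164 and 18.6 against 401 and 402 CPM, and Krt19 at 24.6 and 9.32 against 72.3 and 154 CPM. Both mice lay below the other cells, but mouse 2 lay far lower than mouse 1. Of the adhesion genes 2 of 11 were lower, Cdh1 (E-cadherin), at 86.1 and 6.21 CPM against 243 and 348 CPM (-2.72 ± 0.65, adjusted p = 0.036), and Rab25. Of 9 luminal progenitor genes 3 were lower, among them Lcn2 (lipocalin-2), at 3052 and 1342 against 8347 and 6957 CPM (-1.89 ± 0.19, adjusted p = 0.00021), and Wfdc18.

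Luminal transcripts were unevenly shared among the cells. The 8 pan-luminal genes made up a median of 0.015% and 0.0186% of UMIs in the fibroblast-gene cells, against 0.625% and 0.846% in the other cluster 6 cells. Fewer than 3 of the 8 genes were seen in 44 of 60 and 25 of 37 fibroblast-gene cells. The other 16 cells of mouse 1 held 10413 CPM of the pan-luminal genes, near the 10747 CPM of the other cluster 6 cells, and the other 12 cells of mouse 2 held 1188 CPM. These cells were deeper, with a median of 20832 and 8940 UMIs against 11733 and 6292 in the cells with fewer than 3 of the genes. Among the 16 cells of 9 or more genes, 1 cell of mouse 1 with all 13 fibroblast genes and 23413 UMIs held 105 Krt8 and 88 Krt18 UMIs, 2.17% pan-luminal. The remaining 15 held at most 0.0608%. Whether that cell, or any of the deeper cells with luminal transcripts, was a droplet of more than 1 cell was not tested. Without it, 375 genes were higher and 124 lower.

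At an equal depth of 2000 UMIs, a Krt8 UMI was seen in 29.8% of 57 fibroblast-gene cells in mouse 1 and 14.7% of 34 in mouse 2, against 70.7% and 80.5% of the other cluster 6 cells. In the cells of 6 or more genes it was seen in 1 of 11 and 1 of 18. Cells in cluster 13, which scored high for the mature luminal signature alone, gave 100% and 98.4%. Without thinning, at least 1 luminal keratin UMI was seen in 39 of 60 and 22 of 37 fibroblast-gene cells, and 10 and 6 of them held both luminal and basal keratins. A UMI of any keratin counted was missing from 20 and 13 cells.

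**Figure D5:**
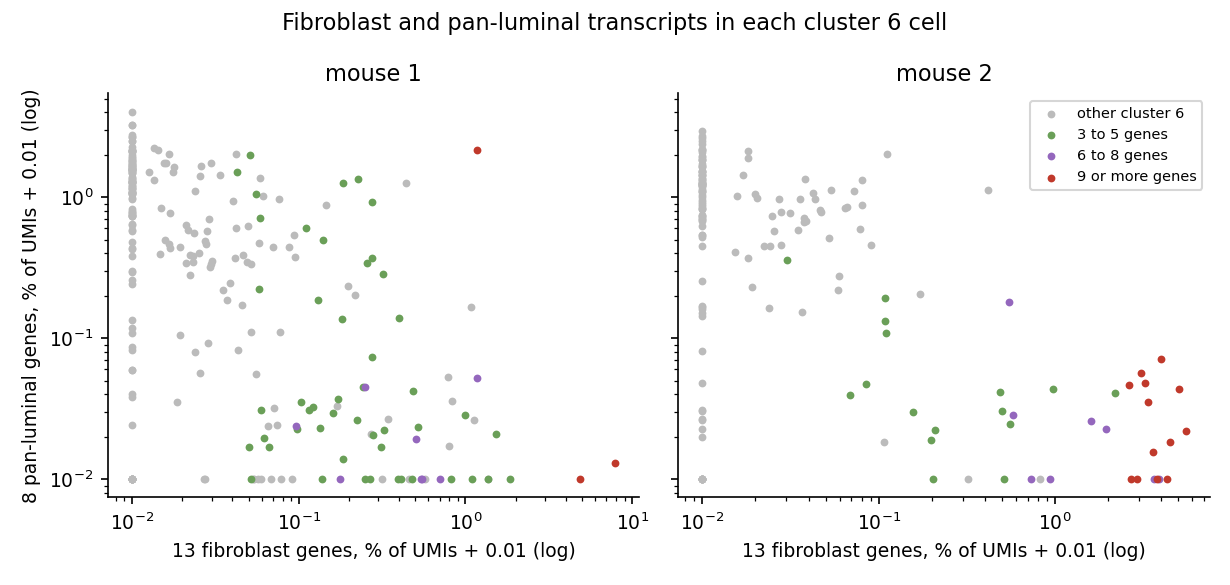
Each point is a cluster 6 cell of mouse 1 (left) or mouse 2 (right), by its percentage of UMIs from the 13 fibroblast genes (horizontal) and from 8 pan-luminal genes (vertical), both plus 0.01 on log axes; colour gives the number of fibroblast genes held. Cells of 9 or more genes lie at the lower right except 1 of mouse 1 with 2.17% pan-luminal, and cells of 3 to 5 genes spread over the whole height in mouse 1.

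Genes of the other cell types a tumor holds were summed as a description. The sort left out cells with CD31 or CD45, and the authors removed immune clusters. Low leukocyte and endothelial sums were thus largely set beforehand and are no check of the name. Macrophage genes summed to 23.5 and 3.11 CPM in the fibroblast-gene cells, with 10 of 11 at 0 in each mouse, and no cell held a UMI of Ptprc, the pan-leukocyte gene CD45. The T and NK cell list was at 0 and 6.21 CPM, the B cell list at 2.24 and 0 CPM and the erythroid list at 0 and 3.11 CPM. Endothelial genes stood at 53.7 and 77.7 CPM, with 3 and 7 of 12 at 0, against 51.3 and 723 CPM in the other cluster 6 cells. Of the endothelial genes tested none passed. Schwann cell genes stood at 86.1 and 112 CPM, with 3 and 4 of 8 at 0, and Cdh19 was called (23.5 and 31.1 CPM against 3.58 and 5.52 CPM). Of adipocyte genes Lpl was called (28 and 370 CPM against 0 and 13.4 CPM), and 5 of 7 were at 0. Leaving out every cell with 3 or more genes of another cell type kept 274 genes higher and 69 lower, 323 of them among the 397.

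The level of the 13 genes was fixed by the rule and does not bear on the name. Of the genes outside the rule, basal genes summed to 50.3 and 143 CPM in the 32 cells of 6 or more genes, against 2913 and 2884 CPM in the other cluster 6 cells, and contractile genes to 195 and 1373 CPM against 3738 and 2540 CPM. These 32 cells were not uniform. At least 1 luminal keratin UMI was seen in 5 of 11 and 9 of 21, 3 or more pan-luminal genes in 2 and 4, and 3 or more pericyte genes in 2 and 5. The 65 cells of 3 to 5 genes held 2034 and 3797 CPM of the fibroblast genes beside contractile, basal and luminal progenitor genes at 4055 and 12895, 1444 and 2496, and 14414 and 8533 CPM. These values alone do not name those 65 cells fibroblasts. Compared alone with the other cluster 6 cells, 143 genes were higher (1.77% of 8097 tested) and 56 lower (0.692%), 199 in all (2.46%). For the cells of 6 or more genes 340 were higher (4.82% of 7054 tested) and 119 lower (1.69%), 459 in all (6.51%).

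The deposited signature scores, which run from 0 to 1 and grade each cell for basal, mature luminal and luminal progenitor expression, were near their top in the fibroblast-gene cells. The mean luminal progenitor score was 0.914 and 0.908 and the mean mature luminal score 0.809 and 0.951, against 0.531 and 0.613 and 0.473 and 0.552 in the other cluster 6 cells. The mean basal score was 1 in both mice, against 0.904 and 0.957. All 3 scores exceeded 0.5 in 44 of 60 and 33 of 37 fibroblast-gene cells, and in 53 of 200 and 45 of 130 of the others. In the cells of 9 or more genes the median of each score was 1. Yet their luminal progenitor genes summed to 6608 and 1514 CPM and their mature luminal genes to 34.1 and 48.2 CPM, against 20154 and 15569 and 841 and 876 CPM in the other cells, so scores and these gene sums ran in opposite directions. With 2 mice an exact permutation of the pairs cannot give a p under 0.5, and no test of scores was made.

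The fibroblast-gene cells weighed on the mean scores of cluster 6. The sum of the mean luminal progenitor and basal scores was 1.55 and 1.65 over all of cluster 6 and 1.43 and 1.57 without them. The highest sum in any other cluster was 1.15 in mouse 1 and 1.19 in mouse 2, so cluster 6 stood above the other clusters either way. With the mature luminal score added, cluster 6 stood at 2.10 and 2.29 with them and 1.91 and 2.12 without.

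They also weighed on genes that the study named for cluster 6. The fibroblast-gene cells gave 26.2% and 20.2% of the UMIs of cluster 6. They held 55.8% and 51.4% of its Vim UMIs, 57.7% and 60.5% of Mmp2 and 52.2% and 49.6% of Postn, but 38.2% and 7.44% of Spp1. Without them, cluster 6 still stood above cluster 13, where Vim was at 4.92 and 9.93 CPM, Mmp2 at 0 and 1.24 CPM and Postn at 0 and 0.414 CPM. Of the basal genes named, they held 14% and 11.8% of Krt14, 12% and 22.7% of Krt5 and 22.1% and 33.7% of Acta2.

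Sox10, the transcription factor of the study's interest, and the genes named with it did not move together. Sox10 stood at 125 and 83.9 CPM against 126 and 100 CPM (-0.10 ± 0.34, adjusted p = 0.95). Nes (nestin) gave 58.1 and 62.1 against 50.9 and 46.5 CPM (0.31 ± 0.36, adjusted p = 0.81). Mia was lower, at 248 and 158 against 496 and 435 CPM (-1.20 ± 0.29, adjusted p = 0.041), and Pmp22, a membrane protein of myelin and of many other cells, was higher, at 208 and 314 against 74.7 and 42.6 CPM (2.15 ± 0.40, adjusted p = 0.0091). In the cells of 6 or more genes Sox10 was lower (-2.72, adjusted p = 0.025, the lowest over the alternatives, which reached 1), found in 2 of 11 and 2 of 21 cells, whereas those of 3 to 5 genes held it at 148 and 149 CPM.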

How the data were processed

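Cells sorted for GFP from tumors of 2 mice were profiled by droplet RNA sequencing. The deposited matrices hold raw UMI counts per gene and cell, made by the authors with Cell Ranger 6.0.1 on mm10. The authors then removed doublets called by scDblFinder, cells with outlying mitochondrial shares and immune clusters, and clustered the rest in Seurat (version 4.0.3 in the submitters' processing notes). Their deposited annotation gives each cell's cluster and its signature scores (VAM), which run as a fraction from 0 to 1. No doublet caller was run again. Replicates were the mice. With the mouse as a block, p-values measure how the class difference varied between the mice, not the spread of the mice themselves. The variance of each gene had 1 residual degree of freedom and was drawn toward that of other genes (10 prior degrees of freedom).

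The members, gene lists and tests were chosen with earlier results of these data known. UMIs were summed per mouse and class (4 sums, 1 residual degree of freedom), filtered with filterByExpr, scaled by TMM and tested with edgeR 4.0.16 (quasi-likelihood, mouse as block, Benjamini-Hochberg over all 8436 genes fitted). Both classes of a mouse come from the same animal, which pairs them. Deviations of paired sums correlated at 0.242 across genes. The 13 rule genes were left out of counted calls. On simulated data for this comparison of 8436 genes, edgeR recovered 6 of 100 genes changed 2-fold and 73 of 100 changed 4-fold, with 5 unchanged genes called. DESeq2 1.42.0 was an alternative. Genes were named by rule: the 13 rule genes, the 12 largest rises and falls, and genes the study named. These rises and falls had to pass the threshold with at least 50 CPM and the same sign in both mice. Up to 4 called members of each list were added, or the 2 with the highest counts where none was called. Of the 126 genes so named, 97 tested ones are printed beside the rule genes, chosen after their values were seen. One of the largest falls is not reported here. Foxa1 was too low to test. Intervals are exact 95% intervals and cover counting error only. Fold bounds use 3 UMIs over a class. Thinning to 2000 UMIs left out shallower cells (3 fibroblast-gene cells per mouse). Overlapping genes share reads that the counting may split.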

Additional observations from a re-analysis of the deposited data

How the results depend on the processing

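Counts of genes higher and lower in the fibroblast-gene cells (318 and 79) were 252 and 49 with RLE size factors, 161 and 27 with DESeq2 (7696 genes with an adjusted p), 484 and 254 with no low-count filter, 226 and 39 against a fold of 1.5, and 462 and 139 against cells of 0 rule genes. Without the replicate block they were 71 and 9, and the fits that left out 1 sum were also run without it. Leaving out 1 sum at a time gave 0 to 283 higher and 0 to 100 lower; the sums left unpaired in such a fit were assumed to vary like the rest, and the lowest values came without either sum of the other cluster 6 cells. Thinning to 2000 UMIs gave 17 and 1, choosing the cells at 2000 UMIs 57 and 6, a minimum of 4 genes 183 and 23, and of 6 genes 340 and 119. Cells with fewer than 3 pan-luminal genes gave 331 and 136, those with 3 or more 27 and 12. Leaving out cells with genes of other types gave 274 and 69. Alternatives chosen after seeing the data gave 143 and 56 for the cells of 3 to 5 genes, 214 and 87 without those of 9 or more, and 375 and 124 without the keratin-rich cell. No gene called in the main comparison was called in the opposite direction in any of these 20 alternatives. The cause of these shifts was not tested. Some alternatives leave fewer cells or UMIs, and those leaving out 1 sum also lack the block.

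Among named genes, direction turned for these. Acta2 gave -3.28 for 6 or more genes, -0.51 for 4 or more and -1.47 when chosen at 2000 UMIs. Tagln gave -1.07 for 6 or more and -0.011 when chosen at 2000 UMIs. Nes gave -1.84 for 6 or more. Krt5 gave 0.48 against cells of 0 rule genes. Sox10 gave 0.049 in cells with 3 or more pan-luminal genes, 0.35 in those of 3 to 5 genes and 0.16 without those of 9 or more. Leaving out 1 sum at a time, Spp1 ran from -1.49 to 0.61, Acta2 from -0.13 to 0.78 and Sox10 from -0.47 to 0.19, the opposite sign coming without the fibroblast-gene cells of mouse 2 in all 3 and also at 0.12 without the other cluster 6 cells of mouse 2 (Spp1) or mouse 1 (Sox10). The share of cluster 6 was 37.3% and 31.1% at a minimum of 2 genes, 11.9% in mouse 1 at 4, 4.23% and 12.6% at 6, and 6.94% in mouse 1 when thinned. In mouse 1 it was 17.3% without Col3a1, 13.5% without Dcn and 14.6% without Pdpn. The pan-luminal level of mouse 2 was 4266 CPM at a minimum of 2 genes.

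With 2 mice, 1 library each and 97 cells, 2-fold changes were mostly out of reach, and the fibroblast genes of mouse 1 rest on 3 cells. Shares of cells with a UMI depend on depth.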

Other observations

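Few genes passed in several lists that do not describe fibroblasts. Over all genes tested 3.78% were higher and 0.938% lower, so 1 call in a list this short is no result about the list. None of 10 hypoxia and glycolysis genes and none of 3 proliferation genes tested passed, with medians of -0.16 and -0.43. Of 12 immediate early and heat shock genes 1 was higher, Fosb, at 451 and 665 CPM against 255 and 250 CPM (1.13 ± 0.29, edgeR adjusted p = 0.049). Of 10 interferon genes 1 was higher, Ifi27l2a, at 136 and 332 CPM against 71.5 and 75.7 CPM (1.54 ± 0.38, adjusted p = 0.042), and the list's median was 1.21, with a sum of 643 and 1438 CPM against 494 and 450 CPM. Neither of the 2 milk genes tested passed. Genes of antigen-presenting fibroblasts (Cd74 and MHC class II) summed to 6.71 and 6.21 CPM, below the 14.7 and 22.9 CPM of the other cluster 6 cells, and none was abundant enough to test.

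Across cells, the share of UMIs from the fibroblast genes ran against that from pan-luminal genes within the fibroblast-gene cells of each mouse (Spearman's rho -0.378 over 60 cells and -0.37 over 37). It ran against that from basal genes at -0.367 and -0.619 and from contractile genes at -0.307 and -0.631. Such shares add up to a whole within a cell and come from 1 library per mouse, so they are a description. The number of fibroblast genes held was nearly unrelated to depth (0.112 and -0.113).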
